A study of Mus musculus with 8 samples.

Results

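Leucine is carried to the ribosome by a set of isoacceptors, tRNAs that take the same amino acid but differ in the anticodon that reads the codon. Nucleases cut tRNAs into tRNA-derived fragments (tRFs), and a 5′ tRF begins at the first base of the mature tRNA, passes through the 5′ strand of the acceptor stem and runs into the D arm. Which cut was made shows in where a fragment ends, and near-identical isoacceptors can give fragments that differ by a single base or by none.

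The fragments described here came from 4 leucine isoacceptors, tRNA-Leu-CAG, tRNA-Leu-CAA, tRNA-Leu-AAG and tRNA-Leu-TAG, measured in macrophages sorted from pancreatic islets (iMACs). They were chosen by tRNA name, and entries with the same sequence were joined, which gave 21 distinct fragments of 144 in the table, or 31 of 242 deposited entries. The family was taken up because earlier results on these same counts had called 2 Leu-CAG 5′ fragments higher in db/db iMACs and had shown Leu-TAG 5′ fragments to be high in 3 libraries. For that reason the differences between genotypes in Leu-CAG and in Leu-TAG are given below as a description without a p-value.

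The study asked whether tRFs of islet cells change in obesity and diabetes. Small RNA was sequenced from 4 db/db and 4 wild-type iMAC preparations. The db/db mice (BKS.Cg-Dock7m+/+LeprdbJ) lack a working leptin receptor, while the wild-type controls (BKS.Cg-Dock7m+/+) carry the same Dock7m background, and all were males of 8 weeks. Each preparation pooled the islets of several mice before one sort for CD45, F4/80, CD11b and CD11c, so a library stands for a pool and not for an animal. By the paper's account a pool held fewer db/db than wild-type mice, so pool size and genotype cannot be told apart. The table lists tRFs alone, so the sorted cell type could not be checked against macrophage markers in it. In such bulk samples, fewer cells that hold a tRF and less of it per cell cannot be told apart, and a share can also change because the other tRFs did. The libraries held 1710 to 2521 listed counts in db/db and 1477 to 4567 in wild-type iMACs, each count being 1 molecule by its molecular identifier. Fragments of these 4 isoacceptors, called leucine fragments throughout, had 2186 of 18250 listed counts in all. The 6 listed fragments of a further isoacceptor, Leu-TAA, with 722 counts, lie outside this set. They are counted below among the fragments of other tRNAs.

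RefSeq (GRCm38.p6) lists 10 Leu-CAG, 4 Leu-CAA, 5 Leu-AAG and 3 Leu-TAG genes in the mouse. Of the Leu-CAG genes, 5 lie on chromosome 1 and 3 on chromosome 8. The Leu-TAG genes lie on chromosome 7 (120835479 to 120835560), chromosome 11 (69124241 to 69124322) and chromosome 14 (51082830 to 51082911). Leu-CAA genes span 105 to 107 bases, against 82 or 83 bases for the other 3 isoacceptors, because they hold an intron that is spliced out. A fragment cannot be assigned to one of these copies, and 8 of the 21 fragments carried more than 1 tRNA name.

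All 21 fragments lay within the first 26 bases of the tRNA, and none ended in the CCA that closes a mature tRNA. Positions are counted from 1 at the first base of the earliest listed fragment. Of the 21, 17 began at base 1, and these formed 4 series of lengths with 2 beginnings and 2 forms of base 16. The named and length-compared fragments are shown here as DNA letters, 5′ to 3′, with base 16 in capitals, since that base alone separates the series within a pair. The Leu-CAG series was:
Leu-CAG 16 nt: gtcaggatggccgagC
Leu-CAG 17 nt: gtcaggatggccgagCg
Leu-CAG 18 nt: gtcaggatggccgagCgg
Leu-CAG 22 nt: gtcaggatggccgagCggtcta
Leu-CAG 24 nt: gtcaggatggccgagCggtctaag
Leu-CAG 25 nt: gtcaggatggccgagCggtctaagg
Leu-CAG 26 nt: gtcaggatggccgagCggtctaaggc

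The series listed under both Leu-CAA and Leu-CAG differed from it by C16T, the Leu-CAG base standing first:
Leu-CAA/Leu-CAG 18 nt: gtcaggatggccgagTgg
Leu-CAA/Leu-CAG 25 nt: gtcaggatggccgagTggtctaagg

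The series of Leu-AAG and Leu-TAG differed from Leu-CAG by T2G, C3T, G6C and A7G, again with the Leu-CAG base first, and kept the C at base 16:
Leu-AAG/Leu-TAG 16 nt: ggtagcgtggccgagC
Leu-AAG/Leu-TAG 18 nt: ggtagcgtggccgagCgg
Leu-AAG/Leu-TAG 20 nt: ggtagcgtggccgagCggtc
Leu-AAG/Leu-TAG 22 nt: ggtagcgtggccgagCggtcta

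The series listed under Leu-TAG alone differed from the Leu-AAG/Leu-TAG one by C16T. Its most abundant fragment is shown with the one fragment that began at base 3, and with the leading internal fragment, which lacks the bases that tell Leu-AAG, Leu-CAG and Leu-TAG apart:
Leu-TAG 18 nt: ggtagcgtggccgagTgg
Leu-TAG, bases 3 to 18: tagcgtggccgagTgg
Leu-AAG/Leu-CAG/Leu-TAG, bases 10 to 25: gccgagCggtctaagg

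The 5 Leu-TAG fragments beginning at base 1 or 2 were the most abundant set with 866 counts over the 8 libraries. The 7 Leu-CAG fragments followed with 644 counts, the 2 internal fragments with 273, the 4 Leu-AAG/Leu-TAG fragments with 259 and the 2 Leu-CAA/Leu-CAG fragments with 95. The fragment beginning at base 3 had 49. Fragments with C at base 16 had 1176 counts over 13 sequences and those with T had 1010 over 8. The series also differed in length, since Leu-CAG was listed at 16 to 26 nt and Leu-TAG at no more than 19 nt. The table lists no fragment below a total of 23 counts, so a length that is not listed may still have been present at a lower level.

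**Figure D1:**
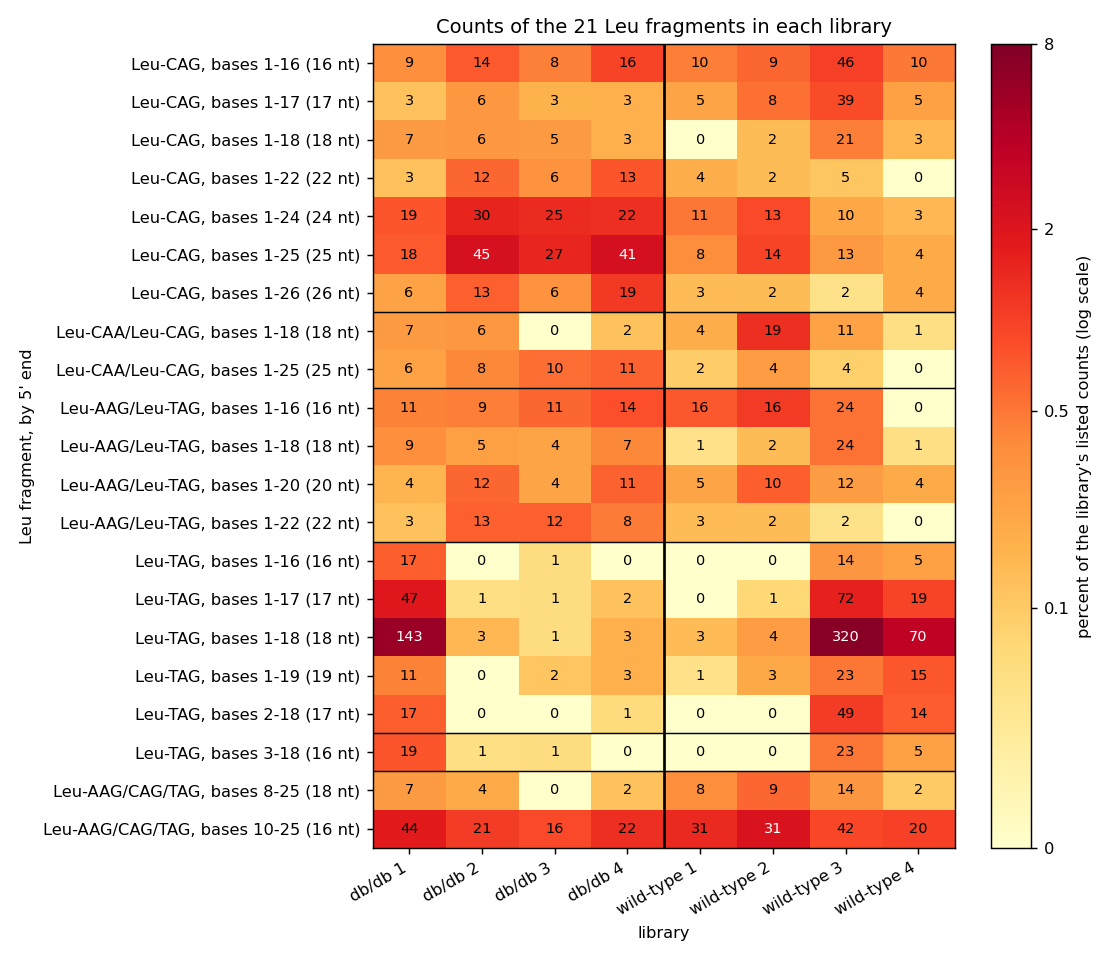
Counts of each of the 21 leucine fragments (rows, grouped by series) in the 4 db/db and the 4 wild-type libraries (columns), with the count written in each cell and the colour giving its percent of the library's listed counts on a log scale. The Leu-TAG rows are dark in db/db library 1 and wild-type libraries 3 and 4, where the 18-nt fragment had 143, 320 and 70 counts, while the 22 to 26-nt Leu-CAG rows are darkest in db/db libraries 2, 3 and 4.

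Leucine fragments of the 4 isoacceptors together made up 16.3, 10.6, 7.91 and 11.9% of the listed counts in the 4 db/db libraries. Their shares were 5.27, 10.2, 16.9 and 9.21% in the 4 wild-type libraries, always in the order of replicates 1 to 4. The groups overlapped. The mean was 11.7 ± 3.49% in db/db and 10.4 ± 4.81% in wild-type iMACs (SD, n = 4 each).

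The long Leu-CAG fragments were at a higher mean level in db/db iMACs. As a percent of listed counts, the groups overlapped at 22, 24 and 25 nt and for each of the short ones, but not at 26 nt. The 25-nt fragment, the most abundant Leu-CAG sequence, had 18, 45, 27 and 41 counts in db/db libraries, against 8, 14, 13 and 4 in wild-type libraries. As a share of listed counts it took 1.72 ± 0.78% in db/db and 0.450 ± 0.339% in wild-type iMACs (SD, n = 4 each), and 3 of the 4 db/db libraries lay above every wild-type library in normalised counts. Its log2 fold change by edgeR was 2.20 (SE 0.60).

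The 24-nt Leu-CAG fragment, 1 base shorter, had 19, 30, 25 and 22 counts in db/db libraries, against 11, 13, 10 and 3 in wild-type libraries. Its log2 fold change was 1.80 (SE 0.53). In TMM-scaled CPM, the count normalised to the library total and the scaling factor, the lowest db/db library, library 1 at 7203, only touched the highest wild-type one, library 2 at 7202, and as a percent of listed counts these 2 libraries overlapped. These 2 were the calls that had put the family forward, so their direction is given here as a description.

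The 16-nt Leu-CAG fragment shows the other end of the series. It had 9, 14, 8 and 16 counts in db/db libraries, against 10, 9, 46 and 10 in wild-type libraries. The groups overlapped, with a log2 fold change of -0.007 (SE 0.51). Without db/db library 1 and wild-type libraries 3 and 4 it was 0.73. The 17-nt fragment had 3, 6, 3 and 3 counts in db/db libraries, against 5, 8, 39 and 5 in wild-type libraries. The 18-nt fragment had 7, 6, 5 and 3 counts in db/db libraries, against 0, 2, 21 and 3 in wild-type libraries, and its mean share was the higher one in db/db, at 0.258 ± 0.0567% in db/db and 0.186 ± 0.194% in wild-type iMACs (SD, n = 4 each).

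The 22-nt and 26-nt Leu-CAG fragments were named after their values had been seen. The 22-nt fragment had 3, 12, 6 and 13 counts in db/db libraries, against 4, 2, 5 and 0 in wild-type libraries. The 26-nt fragment had 6, 13, 6 and 19 counts in db/db libraries, against 3, 2, 2 and 4 in wild-type libraries. Summed over 22 nt and more, Leu-CAG gave 46, 100, 64 and 95 counts in db/db libraries, against 26, 31, 30 and 11 in wild-type libraries. Under 22 nt it gave 19, 26, 16 and 22 counts in db/db libraries, against 15, 19, 106 and 18 in wild-type libraries, where library 3, the one with the most listed counts, held most of them.

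**Figure D2:**
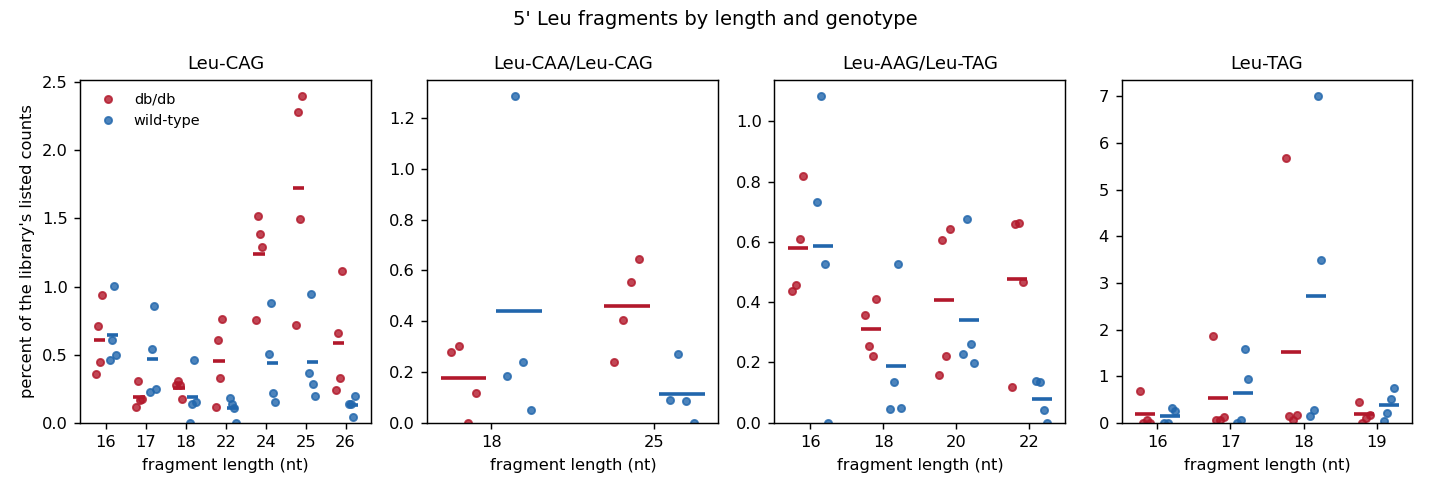
Share of each library's listed counts (vertical axis, percent, its own scale in each panel) taken by 5′ leucine fragments of each listed length (horizontal axis, nt), with db/db points left of wild-type points, 1 point per library and a bar at the mean of 4. At 25 nt the Leu-CAG mean was 1.72% in db/db and 0.450% in wild-type iMACs, while at 16 nt the means were 0.611% in db/db and 0.643% in wild-type iMACs.

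Because the level of a set can follow the library total, the length makeup within a series was compared next. For Leu-CAG, fragments of 22 nt and more made up 70.8, 79.4, 80.0 and 81.2% of its 5′ counts in db/db libraries, against 63.4, 62.0, 22.1 and 37.9% in wild-type libraries. Each db/db library lay above each wild-type library, although the Wilson 95% intervals of neighbouring ones overlapped, at 58.8 to 80.4% in db/db library 1 and 48.1 to 76.4% in wild-type library 1. The means were 77.8 ± 4.77% in db/db and 46.4 ± 19.98% in wild-type iMACs (SD, n = 4 each), given as a description. The difference of 31.5 percentage points fell to 17.5 without db/db library 1 and wild-type libraries 3 and 4. It ranged from 23.4 to 37.2 points leaving out 1 library, the lowest being without wild-type library 3.

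The other 2 series that had long members were not those whose calls had led to the choice, although they come from the same libraries. In the Leu-CAA/Leu-CAG series, 6 of 13, 8 of 14, 10 of 10 and 11 of 13 counts were of 25 nt in db/db libraries, against 2 of 6, 4 of 23, 4 of 15 and 0 of 1 in wild-type libraries. Every db/db library lay above every wild-type library, wild-type library 4 being left out of the test for its single count. The mean long share was 72.0 ± 24.7% in db/db (SD, n = 4) and 25.8 ± 8.01% in wild-type iMACs (SD, n = 3). The two-sided exact permutation test gave p = 0.0571, the smallest that 4 against 3 libraries allow, and 0.0571 after adjustment over the 2 series tested. This is below the limit of 0.1 used here but is not read as support. The 25-nt fragment had 35 counts in db/db and 10 in wild-type libraries, and the 18-nt one 15 and 35. As no fragment below a total of 23 counts is listed, the 25-nt fragment could be listed through db/db alone. The 22-nt boundary was set with earlier results of these data known.

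In the Leu-AAG/Leu-TAG series, 3 of 27, 13 of 39, 12 of 31 and 8 of 40 counts were of 22 nt in db/db libraries, against 3 of 25, 2 of 30, 2 of 62 and 0 of 5 in wild-type libraries. In db/db libraries 2, 3 and 4 the share exceeded every wild-type value, and db/db library 1 at 11.1% fell just under wild-type library 1 at 12.0%. The mean long share was 25.8 ± 12.6% in db/db and 5.47 ± 5.13% in wild-type iMACs (SD, n = 4 each; two-sided exact permutation p = 0.0571, adjusted 0.0571, where the smallest possible p was 0.0286). The 22-nt fragment, with 36 counts in db/db and 7 in wild-type libraries, could likewise be listed through db/db alone. This p is not read as support either. With 20 nt in place of 22 nt as the limit, the difference of 20.3 percentage points shrank to 3.64 and was not called (adjusted exact permutation p = 0.8286), because the 20-nt fragment then counted as long. When any 1 of the 8 libraries was left out, the adjusted exact permutation p was 0.10 to 0.133 in both series, with differences of 36.8 to 54.8 points for Leu-CAA/Leu-CAG and 16.01 to 25.2 points for Leu-AAG/Leu-TAG. For Leu-CAA/Leu-CAG, leaving out any of the 7 libraries in its test leaves too few for a p below 0.10.

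Longer fragments were also a larger part of the other listed tRNAs in the same libraries. Over the listed fragments of other tRNAs, leaving out Cys-GCA, which 3 libraries held in excess and which was set aside after seeing the data, 25.7, 25.2, 42.8 and 45.4% of counts were of 22 nt and more in db/db libraries, against 13.2, 17.99, 24.8 and 17.4% in wild-type libraries. The groups did not overlap there either. With Cys-GCA included the shares were 33.6, 25.6, 43.2 and 46.6% in db/db libraries, against 13.7, 18.8, 37.3 and 33.6% in wild-type libraries, and the groups overlapped. The part that the length makeup of a whole library played in the leucine values was not tested.

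**Figure D3:**
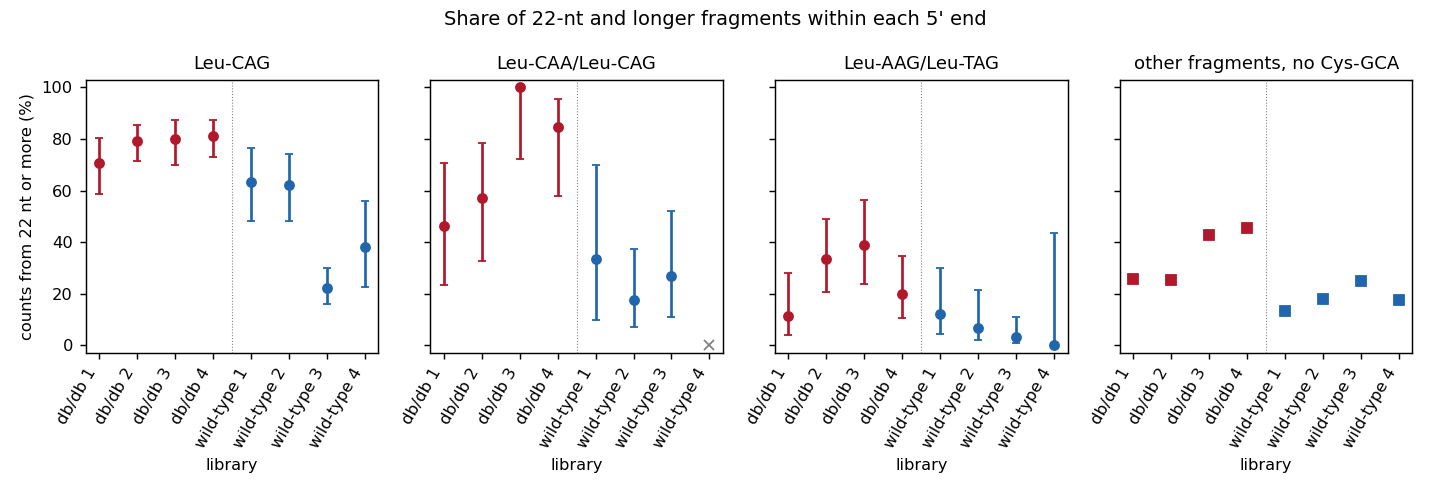
Percent of counts from fragments of 22 nt and more (vertical axis) in each library (horizontal axis, db/db left of wild-type), for 3 leucine 5′ series and, in the last panel, for all other listed fragments without Cys-GCA. Bars are Wilson 95% intervals of counting error, and the cross marks wild-type library 4 with 1 Leu-CAA/Leu-CAG count. In the Leu-CAG panel db/db libraries lie at 70.8 to 81.2% and wild-type libraries at 22.1 to 63.4%.

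Across the table, edgeR's quasi-likelihood test (adjusted p below 0.1 and fold change above 2) called 6 of 44 tested fragments higher in db/db iMACs, or 13.6%, and 0 lower, while an unadjusted p below 0.05 was reached by 10 higher and 2 lower ones. DESeq2 on all 144 fragments without a filter called 16 higher and 0 lower. Of the 21 leucine fragments 5 passed the filter on low counts, and 2 of the 5 were called, the 24 and 25-nt Leu-CAG fragments, from which nothing is read since they led to the choice. Over the 5 the log2 fold changes had a median of 0.27, a value that includes these 2, against 0.06 over all 44. The 3 others under test were short, none was called, and their median was 0.08.

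Of those 3, the 16-nt Leu-AAG/Leu-TAG fragment had 11, 9, 11 and 14 counts in db/db libraries, against 16, 16, 24 and 0 in wild-type libraries. The db/db counts lay between the wild-type ones. By edgeR this gave a log2 fold change of 0.27 (SE 0.75, adjusted p = 0.918).

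The internal fragment of bases 10 to 25, shared by Leu-AAG, Leu-CAG and Leu-TAG, had 44, 21, 16 and 22 counts in db/db libraries, against 31, 31, 42 and 20 in wild-type libraries. It was present in every library, and the groups overlapped (log2 fold change 0.08, SE 0.43, edgeR adjusted p = 0.993). This sequence ends at the same base as the 25-nt Leu-CAG 5′ fragment and lies wholly within it. Its 8 to 25 neighbour had 0 to 7 counts in db/db and 2 to 14 in wild-type libraries.

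Without the filter all 21 leucine fragments were tested, and 3 were called higher against 11 of 144 over the table, or 7.64%. They were the 25-nt and 26-nt Leu-CAG and the 22-nt Leu-AAG/Leu-TAG fragments. The last had 3, 13, 12 and 8 counts in db/db libraries, against 3, 2, 2 and 0 in wild-type libraries, with a log2 fold change of 2.83 (SE 0.81, edgeR adjusted p = 0.0887). The groups met at 1137 CPM in db/db library 1 and 1108 CPM in wild-type library 2, and as a percent of listed counts they overlapped. DESeq2, on the same counts, also called this fragment (log2 fold change 2.74, adjusted p = 0.0617). With 36 counts in db/db and 7 in wild-type libraries, it could be listed through db/db alone.

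The 25-nt Leu-CAA/Leu-CAG fragment had 6, 8, 10 and 11 counts in db/db libraries, against 2, 4, 4 and 0 in wild-type libraries. The groups met here too, at 2274 CPM in db/db library 1 and 2216 CPM in wild-type library 2, and overlapped as a percent of listed counts. It was not called by edgeR without the filter (log2 fold change 2.29, SE 0.76, adjusted p = 0.121) and was called by DESeq2 (2.14, adjusted p = 0.0982). Both fragments fell outside the rule for naming and were singled out after their values had been seen.

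Sorted by length, the leucine fragments of 22 nt and more had log2 fold changes of 1.80 to 2.83 with a median of 2.26 over the 6, and those under 22 nt had a median of -0.01 over the 15. The listed fragments of other tRNAs had medians of 1.002 over 39 of 22 nt and more and -0.29 over 84 shorter ones. Positive values were found for 6 of 6 long leucine fragments and 26 of 39 other long ones, or 26 of 33 without Cys-GCA (median 1.48). Without db/db library 1 and wild-type libraries 3 and 4, they were found for 6 of 6 (median 2.05) and for 18 of 18 that passed the filter (median 1.66). There a fragment could pass the filter through its db/db counts alone, as several of the 6 did, so these signs are not read as support. The 6 share their beginnings and include the 24 and 25-nt Leu-CAG fragments that led to the choice, so they are a description.

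**Figure D4:**
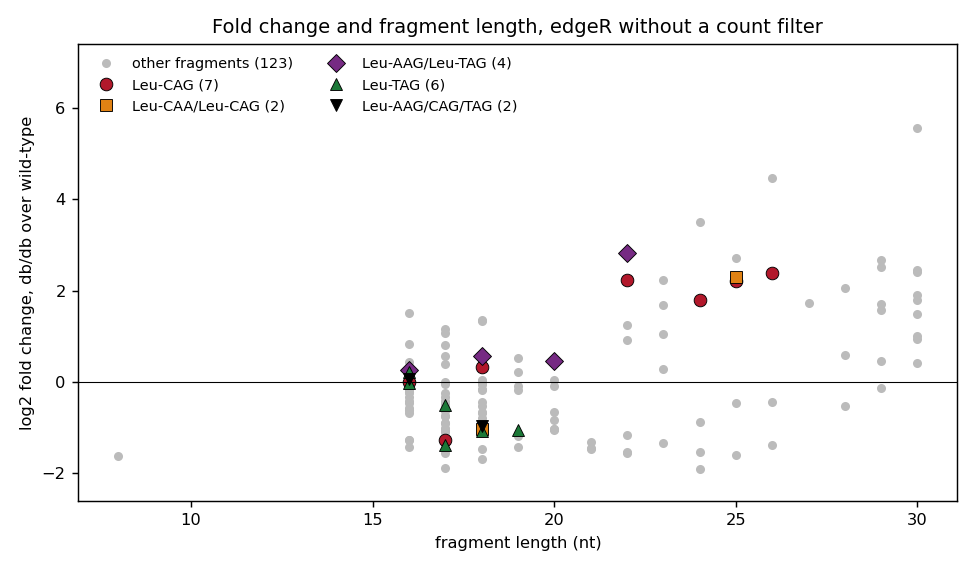
Log2 fold change of db/db over wild-type from edgeR without a filter (vertical axis) against fragment length in nt (horizontal axis) for the 21 leucine fragments, by name set, and the 123 other listed fragments in grey. The 6 leucine fragments of 22 nt and more lie between 1.80 and 2.83, and the 15 shorter ones scatter about a median of -0.01.

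The pair of 25-nt fragments that differ by C16T had a similar ratio in the summed counts of both genotypes. The T form had 6 of 24, 8 of 53, 10 of 37 and 11 of 52 counts of the 2 together in db/db libraries, against 2 of 10, 4 of 18, 4 of 17 and 0 of 4 in wild-type libraries. Summed over libraries it was 35 of 166 counts in db/db (21.1%, Wilson 95% interval 15.6 to 27.9%) and 10 of 49 in wild-type iMACs (20.4%, 11.5 to 33.6%). These intervals cover counting error and not the spread between libraries, and a difference in the ratio between genotypes was not tested. The counts of both forms together were 166 in db/db and 49 in wild-type libraries.

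At 18 nt the same pair did not keep one ratio. The T form, the most abundant Leu-CAA/Leu-CAG fragment, had 7, 6, 0 and 2 counts in db/db libraries, against 4, 19, 11 and 1 in wild-type libraries. The C form had 7, 6, 5 and 3 counts in db/db libraries, against 0, 2, 21 and 3 in wild-type libraries. The T form led in wild-type library 2, at 19 of 21 counts, and the C form in wild-type library 3, at 21 of 32.

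Leu-TAG 5′ fragments, with T at base 16, followed the libraries and not the genotypes. Its 18-nt fragment, the most abundant leucine sequence, had 143, 3, 1 and 3 counts in db/db libraries, against 3, 4, 320 and 70 in wild-type libraries. High values stood in db/db library 1 and wild-type libraries 3 and 4, and the other 5 libraries had 1 to 4 counts each. The fragment did not pass the filter, and edgeR without it gave a log2 fold change of -1.08 (SE 1.46).

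Over its 5 lengths and starts, Leu-TAG took 9.32, 0.202, 0.277 and 0.526% of listed counts in db/db libraries, against 0.183, 0.542, 10.5 and 6.12% in wild-type libraries. The Wilson 95% interval was 8.25 to 10.5% in db/db library 1 and 9.61 to 11.4% in wild-type library 3, against 0.0713 to 0.470% in wild-type library 1. The mean was 2.58 ± 4.50% in db/db and 4.33 ± 4.91% in wild-type iMACs (SD, n = 4 each). The fragment of bases 3 to 18 was high in the same 3 libraries, at 19, 1, 1 and 0 counts in db/db libraries, against 0, 0, 23 and 5 in wild-type libraries.

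In the 3 libraries that held many Leu-TAG fragments, those of 17 and 18 nt led. The 18-nt fragment made up 56.3% of all Leu-TAG counts in db/db library 1, 63.9% in wild-type library 3 and 54.7% in wild-type library 4, and the 17-nt fragment 18.5, 14.4 and 14.8% of them. The lesser lengths were less even, with the 19-nt fragment at 4.33, 4.59 and 11.7% and the 16-nt fragment at 6.69, 2.79 and 3.91%. The other 5 libraries had 32 such counts among them, 14 of 18 nt.

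At 18 nt the T form made up 94.1% of the Leu-TAG and Leu-AAG/Leu-TAG pair in db/db library 1 (143 of 152 counts, Wilson 95% interval 89.1 to 96.9%), against 93.0% in wild-type library 3 and 98.6% in wild-type library 4. Over the other 5 libraries it was 14 of 33 counts (42.4%, 27.2 to 59.2%). The C form, Leu-AAG/Leu-TAG, had 9, 5, 4 and 7 counts in db/db libraries, against 1, 2, 24 and 1 in wild-type libraries. It was high in wild-type library 3 but had 1 count in wild-type library 4.

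The same 3 libraries held many 5′ fragments of Cys-GCA and Ser-GCT. Cys-GCA took 14.8, 0.810, 1.22 and 2.05% of listed counts in db/db libraries, against 0.733, 1.08, 22.4 and 22.4% in wild-type libraries. Ser-GCT took 2.90, 0.607, 0.277 and 0.234% in db/db libraries, against 0.642, 0.406, 4.77 and 3.24% in wild-type libraries. In centred log2 CPM over the 8 libraries, the 3 fragments of other amino acids nearest to 18-nt Leu-TAG were Cys-GCA of 23 nt, Cys-GCA of 19 nt and Ser-GCT of 18 nt, at root mean square differences of 0.62, 0.74 and 0.79. The median over the 117 fragments compared was 2.43.

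Leucine and serine tRNAs both have a long variable arm, and their 5′ ends share bases. Of the listed 18-nt fragments, 4 end in the same 11 bases, shown in capitals because these 4 did not all share a library pattern:
Leu-TAG: ggtagcgTGGCCGAGTGG
Ser-GCT: gacgaggTGGCCGAGTGG
Leu-CAA/Leu-CAG: gtcaggaTGGCCGAGTGG
Ser-AGA/Ser-TGA: gtagtcgTGGCCGAGTGG

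Ser-GCT had 60, 5, 2 and 2 counts in db/db libraries, against 12, 4, 178 and 47 in wild-type libraries, and the same 3 libraries were high as for Leu-TAG. Ser-AGA/Ser-TGA had 8, 4, 7 and 7 counts in db/db libraries, against 7, 6, 14 and 1 in wild-type libraries, and Leu-CAA/Leu-CAG, given above, was highest in wild-type library 2. Those 2 did not stand out in db/db library 1 or wild-type library 4.

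**Figure D5:**
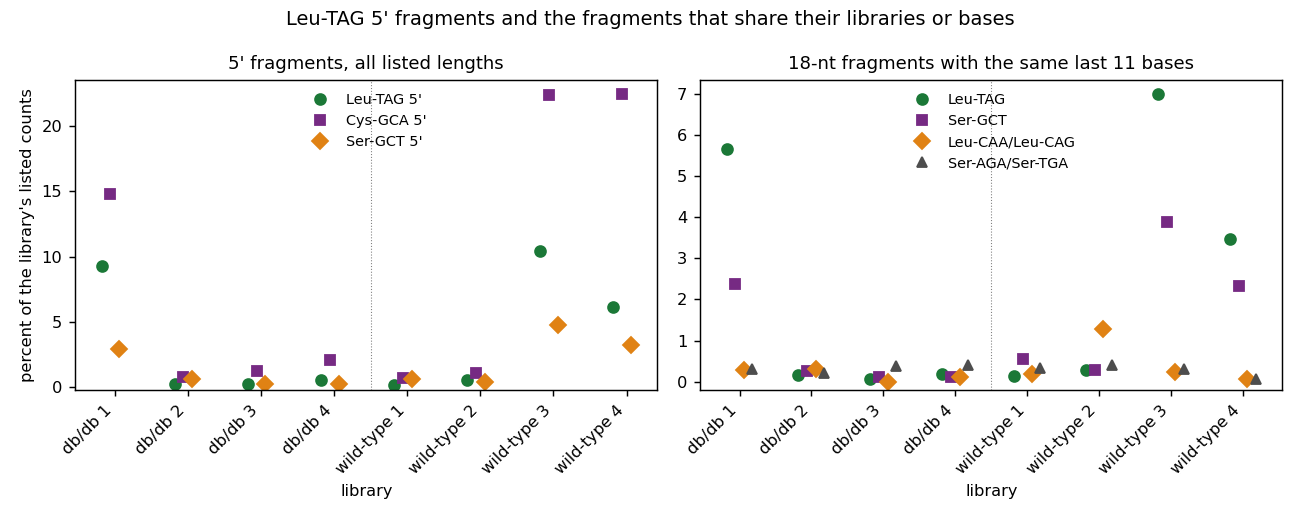
Percent of listed counts (vertical axis) in each library (horizontal axis, db/db left of wild-type) for the 5′ fragments of Leu-TAG, Cys-GCA and Ser-GCT summed over their listed lengths (left) and for 4 fragments of 18 nt with the same last 11 bases (right). Leu-TAG lies at 9.32% in db/db library 1, 10.5% in wild-type library 3 and 6.12% in wild-type library 4, and below 0.6% in the other 5 libraries.

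The fragment pattern nearest to that of 25-nt Leu-CAG was a different one. A 23-nt fragment of Val-AAC/Val-CAC lay at a root mean square difference of 0.45 log2 CPM, with 30, 24, 29 and 30 counts in db/db libraries, against 9, 17, 18 and 4 in wild-type libraries. A 29-nt fragment of Asp-GTC lay at 0.49, with 8, 12, 14 and 20 counts in db/db libraries, against 2, 8, 14 and 1 in wild-type libraries. The median over the 117 fragments compared was 1.38.

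Summed per series, no leucine set was called, where 3 of 37 sums in the table were called higher (8.11%) and 0 lower, and where 4 higher and 0 lower ones had an unadjusted p below 0.05. DESeq2 without the filter called 7 of 60 sums higher and 0 lower, none of them leucine. The log2 fold changes were 1.23 (SE 0.55) for Leu-CAG as a description, 0.82 (SE 0.53, edgeR adjusted p = 0.387) for Leu-AAG/Leu-TAG and 0.58 (SE 0.71, adjusted p = 0.613) for Leu-CAA/Leu-CAG. Leu-TAG had -1.11 (SE 1.52), also as a description, and the internal fragments -0.07 (SE 0.31, adjusted p = 0.852). The median was 0.11 over all 37 sums.

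As shares of listed counts, the Leu-AAG/Leu-TAG series took 1.77 ± 0.53% in db/db and 1.20 ± 0.74% in wild-type iMACs (exact permutation p = 0.286, adjusted over 5 shares 0.886), and the Leu-CAA/Leu-CAG series 0.634 ± 0.119% in db/db and 0.553 ± 0.681% in wild-type iMACs (p = 0.886, adjusted 0.886; SD, n = 4 each). The internal fragments took 1.39 ± 0.47% in db/db and 1.70 ± 0.73% in wild-type iMACs (exact permutation p = 0.571, adjusted 0.886; SD, n = 4 each). Leu-CAG took 5.06 ± 1.96% in db/db and 2.42 ± 0.91% in wild-type iMACs (SD, n = 4 each), without a test.

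Without db/db library 1 and wild-type libraries 3 and 4, which were set aside for the Leu-TAG excess known when the family was taken up, the 22-nt Leu-AAG/Leu-TAG fragment had a log2 fold change of 2.44 and the 25-nt Leu-CAA/Leu-CAG fragment one of 1.94. Both then passed the filter only through their db/db counts, as did the 22 and 26-nt Leu-CAG fragments, so their calls in that setting are not read as support.

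The 24 and 25-nt Leu-CAG calls were lost with library totals alone, with a term for library numbers and without any one of db/db libraries 2, 3 and 4 or wild-type libraries 1, 3 and 4. In the first pair of settings and without db/db library 2, 3 or 4, edgeR called 0 fragments of the whole table. The log2 fold change of the 25-nt fragment was 1.97 with library totals, 2.21 with the library term and 1.90 to 2.70 leaving out 1 library, and that of the 24-nt fragment was 1.53, 1.87 and 1.47 to 2.27 in the same settings.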

How the data were processed

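Small RNA libraries (QIAseq miRNA kit) of 4 db/db and 4 wild-type iMAC preparations were used. The authors removed adapters, collapsed reads by molecular identifier, aligned to GRCm38.p6 and kept perfect bowtie matches to mature tRNAs, and deposited whole-number counts per fragment and tRNA name. A log2 column deposited beside each count was not used. Entries with the same sequence were joined and all 144 sequences entered each fit, printing leucine rows. One tRNA's fragments are not reported by name. Members and lists were chosen with earlier results of these data known. edgeR 4.0.16 (R 4.3.3) was used with TMM, filterByExpr (count minimum 10, total minimum 15), the quasi-likelihood test and Benjamini-Hochberg adjustment, and DESeq2 1.42.0 as an alternative. The edgeR step was checked on simulated data with a common spread and large planted changes, which gives no error rate for these libraries. Sums were made per tRNA name set over fragments whose starts lay within 1 base, since mature tRNA sequences were not used here to assign regions. Shares and length makeup (22 nt and more, libraries of 5 counts and more) were tested by two-sided exact permutation (scipy). Wilson 95% intervals cover counting error only. Likeness used fragments of 20 counts and more. Named fragments were those passing the filter and the most abundant per isoacceptor set and region. Replicate numbers follow accession order and pair nothing, and p-values measure the spread between preparations. Alternatives were the scaling, the filter, the tool, a term for library numbers, leaving out libraries and the length limit.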

Additional observations from a re-analysis of the deposited data

Results flagged for a closer look

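The 18-nt Leu-TAG fragment stood at 54208 CPM in db/db library 1, far from 647, 1434 and 2071 CPM in the other 3 db/db libraries. The fragment of bases 3 to 18 stood at 7203 CPM in that library, against 0, 478 and 647 CPM in the others. As a share of listed counts, Leu-TAG 5′ fragments took 9.32% and the base-3 fragment 0.754% in db/db library 1, each far above the other db/db libraries. The internal fragment of bases 10 to 25 stood at 17174 CPM in wild-type library 2, where the other wild-type libraries had 10470 to 11308 CPM. Of 35 groups of 4 libraries examined these were 5, where chance flags about 1 in 20. The 4 values of db/db library 1 are 2 scales of the same Leu-TAG excess, which was known when the family was taken up, and are not separate events.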

How the results depend on the processing

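No paired analysis was possible because replicate numbers follow accession order and tie no libraries together. The number of leucine fragments called was 2 as reported, where the whole table had 6 of 44. It was 5 with DESeq2 without the filter, where the whole table had 16 of 144. Without the 3 libraries together it was 6, and 4 of these passed the filter only through db/db. The whole table then had 20 of 63 called higher and 7 lower. The number was 0 with library totals alone, a term for library numbers or the stricter filter. The first pair of settings called 0 of 44 in the whole table, and the stricter filter left 1 leucine fragment, neither of the 2, under test. Leaving out 1 library at a time gave 0 to 2, and without db/db replicate 2, 3 or 4 the whole table had 0. It was 2 without db/db replicate 1, where the whole table had 16 of 53 higher and 5 lower. It was also 2 without wild-type replicate 2, where the whole table had 10 of 65 higher. For sums the count was 0 as reported, 0 to 1 leaving out 1 library (1 without db/db replicate 1) and 1 without the 3 libraries, in both cases Leu-CAG. Over all sums, 8 of 40 were called higher and 2 lower without db/db replicate 1. Without the 3 libraries 10 of 41 were called higher and 1 lower.

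The internal fragment of bases 10 to 25, at a log2 fold change of 0.08, changed sign to -0.11 with library totals, -0.082 with RLE factors, -0.072 with DESeq2, -0.064 with deposited entries and -0.38 without the 3 libraries, and ranged from -0.092 to 0.27 leaving out 1 library. The 16-nt Leu-AAG/Leu-TAG fragment gave -0.0014 with library totals and -0.20 without the 3 libraries, with a range of -0.25 to 0.64. The 16-nt Leu-CAG fragment gave 0.066 with the library-number term and 0.73 without the 3 libraries, with a range of -0.36 to 0.45. The internal sum ranged from -0.32 to 0.080. None of these was called under any of these settings. Library totals moved the median of all tested fragments to -0.11, against 0.06 with TMM.

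Leaving out 1 library, the difference in share of listed counts (db/db minus wild-type, percentage points) ranged from -0.086 to 0.42 for Leu-CAA/Leu-CAG, -3.99 to 0.30 for Leu-TAG, -0.15 to 0.13 for its base-3 fragment and -0.52 to 0.025 for internal fragments. It was -0.24 for Leu-CAA/Leu-CAG without the 3 libraries.

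The difference in long share ranged from 36.8 to 54.8 points for Leu-CAA/Leu-CAG and 16.01 to 25.2 for Leu-AAG/Leu-TAG leaving out 1 library, and was 55.2 and 21.3 without the 3 libraries. Neither was below an adjusted p of 0.1 then, at adjusted exact permutation p of 0.10 to 0.133 leaving out 1 library, and at 0.20, the smallest that 3 against 2 libraries allow, without the 3 libraries. With a limit of 20 nt the differences were 46.2 and 3.64 points. The first is the same value as at 22 nt, and its adjusted p of 0.114 differs only through the joint adjustment. With 24 nt it was 46.2 again (adjusted exact permutation p = 0.0571), and Leu-AAG/Leu-TAG gave no value, as no such fragment is listed.

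Depth limited most values, since 16 of 21 leucine fragments did not pass the filter and no library held more than 770 leucine counts. Fragments below a total of 23 counts are not listed, so length shares cover listed lengths only.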
